A study of Mus musculus with 3 samples.

Results

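The 100 microglia described here were the cells of 1 sequencing library, library 2, with the highest share of transcripts from Ccl3 and Ccl4. All cells of that library with at least 2000 UMIs (unique molecular identifiers, each counting 1 captured RNA molecule) were ranked by the share of their UMIs that fell on the 2 genes together, with ties going to the cell with more UMIs, and the first 100 of 3569 cells were selected on that share, from 7522 cells in the series. They were compared with the 1933 cells of the same library, under the same depth filter, that held 0 UMIs of both genes. Another 1536 cells held UMIs of either gene without reaching the first 100.

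The study followed spinal cord microglia after a peripheral nerve lesion. YFP (+) cells were sorted from lumbar cord of mice heterozygous for the allele Cx3cr1-creER-yfp/+ (young adults, strain label C57BL/6), naive or at 24 h or 48 h after transection of the sciatic nerve, with 3 animals pooled per group and 1 library made per group. In this knock-in line the reporter is driven by the Cx3cr1 locus, which circulating monocytes also use, and the animals carry 1 altered Cx3cr1 allele in every group. Tissue was dissociated by Dounce homogenisation and Percoll separation, doublets and outsized events were gated out, and sorted cells were kept in serum-free medium with TGF-β2, IL34 and cholesterol. The barcodes carry a suffix of 1, 2 or 3 that could not be tied to a time point, so the libraries are named by number only. Library 2 held 3591 cells with 24097543 UMIs in all and a median of 5952 per cell. Library 1 held 609 cells with 1343055 UMIs (median 2218), and library 3 held 3322 cells with 19769170 UMIs (median 5742).

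Ccl3 and Ccl4 (MIP-1α and MIP-1β) are small secreted chemokines that attract leukocytes through G protein-coupled receptors, CCR1 among those for Ccl3. Macrophages and microglia transcribe them rapidly when pattern-recognition or cytokine receptors signal through NF-κB and AP-1, and the transcripts are short-lived. In spinal cord and brain, microglia are their main source, and most resting microglia carry few copies. Ccl3 (ENSMUSG00000000982, mm10 chr11:83647844-83649355, minus strand) and Ccl4 (ENSMUSG00000018930, chr11:83662584-83664683, plus strand) are neighbours on opposite strands in the GENCODE M21 annotation. A second cluster on the same chromosome holds Ccl2 (chr11:82035571-82037453), Ccl7 (chr11:82045712-82047525) and Ccl12 (chr11:82101845-82103400).

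The label "high" described a minority of the 100 cells. In library 2, 1933 cells held 0 UMIs of both genes, 1134 held 1, 346 held 2, 93 held 3, 25 held 4, 8 held 5, 3 held 6 and 2 held 7. No cell held 8 or 9, and 25 cells held 10 or more. Of those 25 cells 24 were among the 100, with a median of 37.5 UMIs of both genes (10 to 182) and a median share of 0.363% of all UMIs. The cell left out had 11 UMIs among 25175. The other 76 had a median of 3 UMIs (1 to 7) and a median share of 0.0576%. The 24 cells held 1324 of the 1560 UMIs of both genes in the 100 cells, and 10 cells alone held 1041. At the edge of the ranking the last cell taken had 2 UMIs among 4334, a share of 0.0461%, and the next cell had 2 among 4341, a share of 0.0461%. These values chose the cells and are given as a description only, as is the division into 24 and 76, which was made after the distribution was seen.

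**Figure D1:**
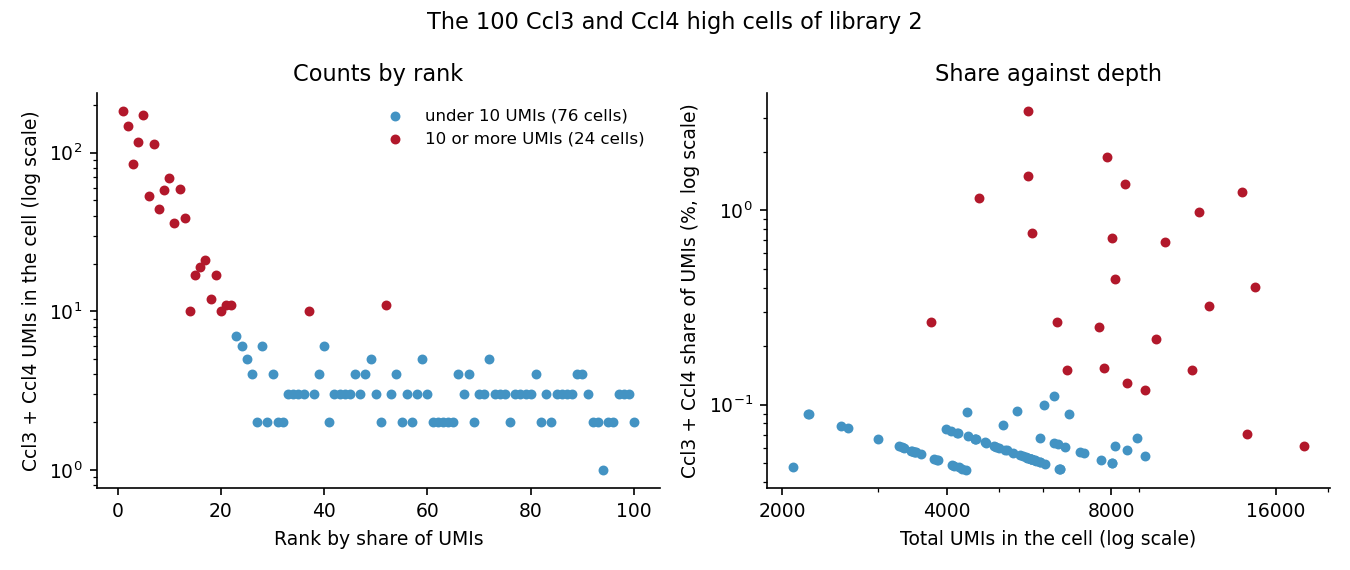
Left, UMIs of Ccl3 plus Ccl4 in each of the 100 cells (log axis) against their rank by share. Right, share of UMIs in percent against total UMIs (both axes logarithmic). The 24 red cells hold 10 to 182 UMIs, the 76 blue cells hold 1 to 7, and the stripes of blue points are cells with the same small count at different depths.

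Ranking by share drew the 76 from shallower cells. Median depth was 8323.5 UMIs (3749 to 18054) in the 24, 5096.5 (2094 to 9235) in the 76 and 5583 (2038 to 19166) in the cells with 0 UMIs. The 24 cells had a median of 3074.5 genes detected, against 2164.5 in the 76 and 2304 in the cells with 0 UMIs. Mitochondrial genes took a median of 1.68%, 1.53% and 1.51% of UMIs in these 3 groups, so the shares lay close together. The part of depth in the results was not tested, and counts of genes from thinned cells are given at the end for the 100 cells together. Counts of cells with 5 or more UMIs of a gene, given below, were not thinned and set groups of unlike depth side by side. The number of cell barcodes that library 2 shared was 5 with library 1 and 19 with library 3, and none of the 100 cells carried a shared barcode.

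The 100 cells carried the markers of microglia. Tmem119 and P2ry12, a membrane protein and an ADP receptor of homeostatic microglia, and Cx3cr1, the fractalkine receptor, each had UMIs in all 100 cells. In the 24 cells Tmem119 ranged from 9 to 59 UMIs (median 25.5), and P2ry12 from 3 to 30 (median 15.5). Of 7 monocyte markers 6 were at 0 in the 100 cells, Ccr2 and Ly6c2 among them, and the list summed to 1 UMI. Of 7 perivascular macrophage markers 6 were at 0, including Mrc1 and Cd163, and the list summed to 2 UMIs. The neutrophil and neuron lists each summed to 1 UMI. All 27 UMIs of the B cell list fell on Cd79b, with Cd79a and Ms4a1 at 0, and its summed level was 44.3 CPM (UMIs of a gene per 1000000 UMIs) against 58.4 in the cells with 0 UMIs. Lists for T or NK cells (14.8 against 13.6 CPM, led by Gzma, with Cd3d, Cd3e and Cd8a at 0), oligodendrocytes (115 against 110 CPM, led by Cnp), astrocytes (131 against 105 CPM, led by Slc1a3, with Aqp4 at 0), endothelial cells (14.8 against 16.3 CPM, led by Pecam1, with Cldn5 at 0) and erythroid cells (6.57 against 20 CPM, led by Hbb-y) were low in both groups, and of these 5 the erythroid list alone differed by 2-fold, being lower in the 100 cells.

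Whether the 2 chemokines marked the same cells was asked by ranking on 1 gene and reading the other. In the 100 cells ranked highest for Ccl3 alone, Ccl4 reached 1426 CPM (95% exact Poisson interval 1334 to 1522), against 56.8 CPM (53.3 to 60.4) in the 2765 cells with 0 Ccl3 UMIs, a ratio of 25.1. In the 100 cells ranked highest for Ccl4 alone, Ccl3 reached 695 CPM (629 to 767), against 39.2 CPM (36.1 to 42.4) in the 2454 cells with 0 Ccl4 UMIs, a ratio of 17.8. Intervals here and below cover counting error only, since each group came from 1 library. Ccl4 was detected in 44.0% (34.1 to 54.3, exact binomial) of the cells ranked by Ccl3 and in 30.1% (28.4 to 31.8) of the cells without Ccl3, and Ccl3 in 39.0% (29.4 to 49.3) of the cells ranked by Ccl4 and in 21.2% (19.6 to 22.9) of the cells without Ccl4. With cells thinned to 2000 UMIs these shares were 23% (15.2 to 32.5) against 11.3% (10.2 to 12.4) for Ccl4 and 26.0% (17.7 to 35.7) against 7.19% (6.31 to 8.15) for Ccl3. Across all 3569 cells the shares of Ccl3 and Ccl4 had a Pearson correlation of 0.80 and a Spearman correlation of 0.05, and without the 24 cells, which were chosen on these same genes, the Pearson correlation was 0.02 over 3545 cells. As a description of the values that chose them, all 24 held both genes, with 1 to 68 Ccl3 UMIs (median 8) and 3 to 146 Ccl4 UMIs (median 21), and Ccl4 exceeded Ccl3 in 21 of them. Of the 76, 49 held both genes.

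**Figure D2:**
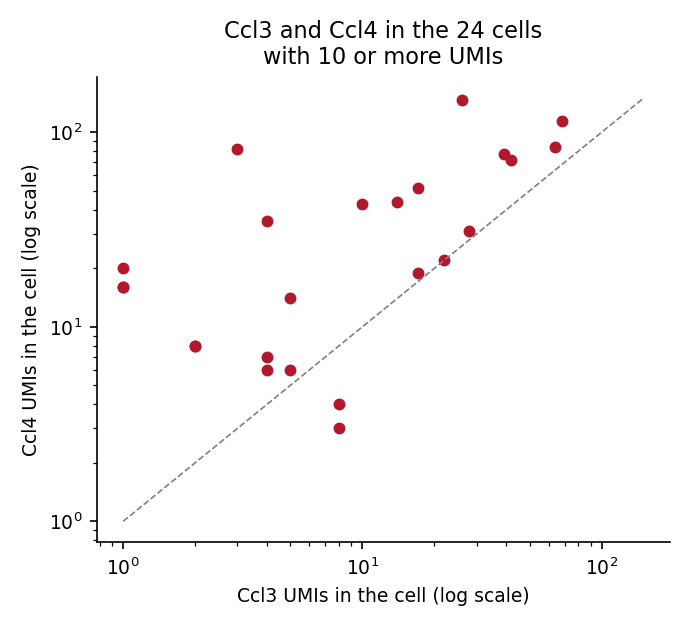
Ccl4 UMIs against Ccl3 UMIs in each of the 24 cells with 10 or more UMIs of both genes (both axes logarithmic). The dashed line marks equal counts. Ccl4 exceeds Ccl3 in 21 cells, and each of the 24 holds at least 1 Ccl3 UMI and 3 Ccl4 UMIs.

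Across the transcriptome the 100 cells stood close to the cells with 0 UMIs. UMIs were summed over cells and scaled to CPM, and ratios were taken after adding 1 CPM to both sides. Among 3175 genes with at least 50 CPM over the library, other than Ccl3 and Ccl4, 4 were at least 2-fold higher in the 100 cells (0.126% of the genes) and none was 2-fold lower (0%). The median log2 ratio was -0.02, and the 1st and 99th percentiles were -0.58 and 0.52. The 4 genes were Ccl2 (log2 ratio 2.72, interval 2.44 to 3.0), Cd74 (2.27), Id2 (1.52, 1.11 to 1.92) and Cstb (1.01, 0.67 to 1.33). The next were Cd83 (0.85), Rgs1 (0.84), Card19 (0.82), Neat1 (0.75), Parl (0.74) and Ccl12 (0.71), followed by Gapvd1, Tlr2, Slc15a3, Chchd3 and Adamts1 between 0.62 and 0.66. With a single library there was no replicate to set these against, and no test was made.

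The 24 and the 76 cells differed in these ratios. Against the same cells with 0 UMIs, 22 genes were at least 2-fold higher in the 24 cells (0.693%) and 56 were 2-fold lower (1.76%). In the 76 cells 1 gene was higher (0.0315%) and 6 were lower (0.189%), and the higher gene was Cd74. In the 1536 cells with UMIs of either gene outside the 100, no gene was higher or lower by 2-fold (0% each way). The genes lower in the 24 cells held 3 to 21 UMIs there, out of 219533 UMIs in all, so their ratios had wide counting intervals.

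The chemokines are attractants for monocytes, T cells and other leukocytes. Of 23 chemokine genes listed, 5 passed the floor besides Ccl3 and Ccl4, and their median log2 ratio was 0.55 in the 100 cells, 0.91 in the 24 and 0.09 in the 76, beside medians over all genes of -0.02, -0.03 and -0.02. Ccl2, the ligand of CCR2, was at 1084 CPM (951 to 1231) in the 24 cells, 41.1 CPM (23.5 to 66.7) in the 76 and 62.4 CPM (58.0 to 67.1) in the cells with 0 UMIs. It was detected in 18 of the 24 cells, with a median of 4 UMIs and at most 40, and 11 of the 24 held 5 or more, as did none of the 76 and 16 of the 1933. Its level was 17.1-fold that of the cells with 0 UMIs in the 24 cells, while the 76 lay below that level with an interval that reached it. Ccl2 was not limited to these cells: 16 cells of library 2 had 10 or more Ccl2 UMIs, and 9 of them were among the 100.

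Ccl12, another CCR2 ligand and the most abundant chemokine of the list, was detected in 96.4% of the cells with 0 UMIs at 966 CPM (948 to 984). It was at 2833 CPM (2615 to 3065) in the 24 cells, with 1 to 153 UMIs per cell and a median of 13, and at 875 CPM (785 to 973) in the 76. Without the cell with 153 UMIs the log2 ratio of the 24 went from 1.55 to 1.22. Cxcl10, an interferon- and NF-κB-inducible ligand of CXCR3, lay under the floor of 50 CPM over the library. It had 85 UMIs in the 24 cells (387 CPM, 309 to 479) and 92 UMIs in all 1933 cells with 0 UMIs (7.76 CPM, 6.26 to 9.52). Those 85 UMIs were in 8 cells, 6 of them with 5 or more and 1 with 40, and leaving that cell out moved the log2 ratio from 5.47 to 4.59. Ccl7, which acts on CCR1, CCR2 and CCR3, had 39 UMIs in 8 of the 24 cells (178 CPM, 126 to 243), 20 of them in 1 cell, against 9.11 CPM (7.48 to 11) in the cells with 0 UMIs.

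Other chemokines varied less. Cxcl16, a membrane-bound ligand of CXCR6, was at 191 CPM (138 to 259) in the 24 cells and 102 CPM (95.8 to 107) in the cells with 0 UMIs. Ccl6 and Ccl9 stood at 264 CPM (201 to 342) and 287 CPM (221 to 367) in the 24 cells, and the 253 CPM and 274 CPM of the cells with 0 UMIs lay within those intervals. Ccl5 was at 50.1 CPM (25 to 89.7) against 21.5 CPM (19.0 to 24.3). In the 100 cells, Ccl8, Ccl22, Cx3cl1, Cxcl1, Cxcl3, Cxcl9 and Pf4 had 0 UMIs, and Cxcl2 had 1. Of 12 chemokine receptor genes 3 passed the floor, and no gene was past 2-fold. Over all genes tested, 0.126% were higher and 0% lower in the 100 cells, and 0.693% and 1.76% in the 24. Cx3cr1 was at 1212 CPM (1070 to 1366) in the 24 cells against 1530 CPM (1508 to 1552) in the cells with 0 UMIs.

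**Figure D3:**
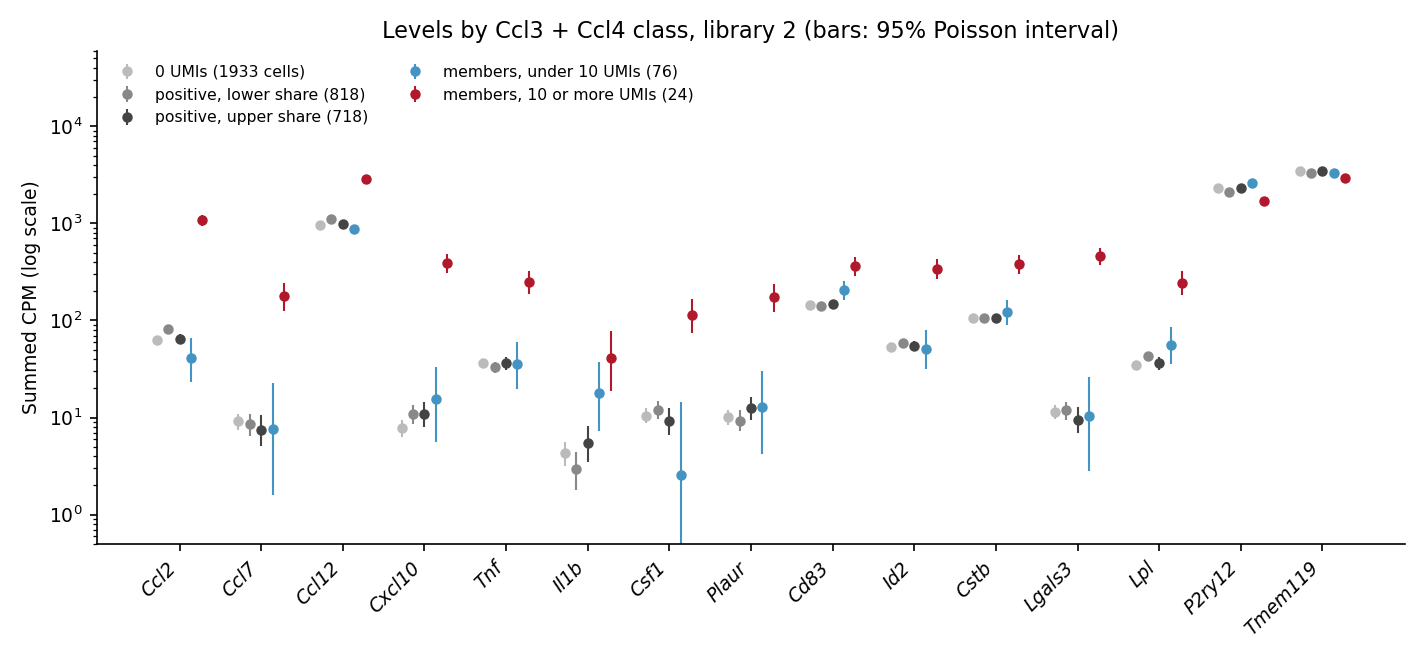
Summed CPM (log axis) of 15 genes in 5 classes of library 2 cells by Ccl3 plus Ccl4 UMIs, with bars for the 95% Poisson interval (those reaching under 0.5 CPM are clipped). The 24 cells stand above the other classes for the chemokine and cytokine genes and Id2, Cstb, Lgals3 and Lpl, and P2ry12 and Tmem119 are lowest in the 24. The 76 cells lie nearer the cells with 0 UMIs, with Cd83, Il1b and Lpl among the genes above them. In the 76, 5 of the 7 Il1b UMIs are in 1 cell, and 9 of the 22 Lpl UMIs are in another.

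Of 20 cytokine genes listed, 4 passed the floor, with a median log2 ratio of 0.01 in both the 100 and the 24 cells. In the 100 cells the median was 0.14 over 7 genes at a floor of 20 CPM and 0.40 over 18 genes with no floor. Il1a, an interleukin 1 form stored in the cell, was the 1 past 2-fold in the 24 cells, beside 0.693% of all genes tested, at 219 CPM (161 to 290) against 101 CPM (95.3 to 107). Tgfb1, which maintains microglial identity, was at 565 CPM (470 to 673) against 542 CPM (529 to 556). The genes under the floor included the larger ratios. Tnf was at 250.5 CPM (189 to 326) in the 24 cells, 35.9 CPM (19.7 to 60.3) in the 76 and 36.5 CPM (33.2 to 40.1) in the cells with 0 UMIs, with UMIs in 12 of the 24 cells and 20 in the highest. Csf1, the growth factor that microglia depend on through the receptor Csf1r, had 25 UMIs in 9 of the 24 cells (114 CPM, 73.7 to 168) and 1 UMI in the 76, against 10.5 CPM (8.70 to 12.5). Osm, an interleukin 6 family cytokine, was at 68.3 CPM (38.2 to 113) against 12.7 CPM (10.7 to 14.9). Il1b had 9 UMIs in the 24 cells, at 41.0 CPM (18.8 to 77.8), and 7 in the 76, at 18.0 CPM (7.22 to 37.0), against 4.30 CPM (3.20 to 5.66), and 5 of those 7 UMIs were in 1 cell. All 14 UMIs of Il1rn, the interleukin 1 receptor antagonist, came from 2 cells, 12 of them from 1. Il6 had 1 UMI in the 24 cells, and Il10, Il23a, Lif and Ptgs2 had none in the 100.

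Of 34 genes of the NF-κB pathway, its inhibitors and its known targets, 11 passed the floor, and their median log2 ratio was 0.23 in the 100 cells, 0.33 in the 24 and 0.10 in the 76. The medians over all genes were -0.02, -0.03 and -0.02. In the 24 cells 2 of the 11 were past 2-fold and none was lower, beside 0.693% and 1.76% of all genes tested. Cd83, a surface protein of activated antigen-presenting cells, was at 360 CPM (285 to 448.5) in the 24, 205 CPM (163 to 256) in the 76 and 144 CPM (137 to 151) in the cells with 0 UMIs, so that it was also higher in the 76 beyond counting error. Bcl2a1b, an anti-apoptotic member of the Bcl2 family with close paralogs that may share reads, was at 569 CPM (474 to 678) against 283 CPM (273 to 292). Icam1, an adhesion molecule, was at 264 CPM (201 to 342) against 143 CPM (137 to 150). Nfkbia, the inhibitor that the pathway induces to end its own signal, was at 246 CPM (185 to 321) against 195 CPM (188 to 203), a value inside the interval of the 24 cells. Plaur, the urokinase receptor, was under the floor, with 38 UMIs in 14 of the 24 cells (173 CPM, 123 to 238) and 10.0 CPM (8.32 to 12) in the cells with 0 UMIs. The subunits differed little: Nfkb1, Rel and Rela had log2 ratios of 0.44, 0.33 and 0.40 in the 24 cells on 24, 22 and 17 UMIs. Gadd45b, Nfkbid and Nfkbiz had 10, 11 and 14 UMIs in the 24 cells and log2 ratios of 3.59, 2.03 and 1.65. Cd40, Ikbke and Traf1 had 0 UMIs in the 100 cells.

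Toll-like receptors and their adaptors act upstream of that pathway. Of 17 toll-like receptor genes and adaptors 6 passed the floor, with a median log2 ratio of 0.12 in the 100 and 0.39 in the 24 cells (-0.02 and -0.03 over all genes), where 2 were past 2-fold, beside 0.693% of all genes tested. Tlr2 was at 219 CPM (161 to 290) against 99.7 CPM (94.1 to 106). Cd14, a co-receptor for bacterial lipids, was at 774 CPM (662 to 900) against 364 CPM (353 to 375), but 52 of its 170 UMIs came from 1 cell, and without that cell its log2 ratio was 0.66 in place of 1.09. Immediate early genes rise within minutes of stimulation. They summed to 4655 CPM (4374 to 4950) in the 24 cells and 4021 CPM (3985 to 4058) in the cells with 0 UMIs, and over 14 of 26 that passed the floor the median log2 ratio was 0.06 in the 100 and 0.12 in the 24 cells, with 1 past 2-fold in the 24, the G protein regulator Rgs1, and none in the 100. Jun and Junb had log2 ratios of 0.17 and 0.53 in the 24 cells.

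Promoter sequences are shown for Ccl3, which chose the cells, and for 3 genes high in the 24 cells, so that a reader can see the regulatory letters named above. Each is the 250 bases before the annotated start from RefSeq (build GRCm38.p6), and capitals mark a match to 1 of 3 motifs searched on both strands: GGGAN followed directly by TTTCC (κB type), TGANTCA (AP-1 type) and TGACGTCA (CRE type). Ccl3 lies at chr11:83649379-83649628 (minus strand), Cxcl10 at chr5:92348890-92349139 (minus), Plaur at chr7:24462233-24462482 (plus) and Csf1 at chr3:107760470-107760719 (minus).
Ccl3: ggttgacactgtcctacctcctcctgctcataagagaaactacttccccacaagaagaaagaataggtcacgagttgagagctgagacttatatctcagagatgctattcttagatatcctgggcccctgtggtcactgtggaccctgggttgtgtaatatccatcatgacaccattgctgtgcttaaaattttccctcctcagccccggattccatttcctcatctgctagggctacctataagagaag
Cxcl10: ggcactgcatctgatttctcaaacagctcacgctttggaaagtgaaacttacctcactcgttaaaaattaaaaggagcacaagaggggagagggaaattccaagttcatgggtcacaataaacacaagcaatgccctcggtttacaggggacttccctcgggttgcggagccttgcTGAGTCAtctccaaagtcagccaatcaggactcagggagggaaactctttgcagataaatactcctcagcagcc
Plaur: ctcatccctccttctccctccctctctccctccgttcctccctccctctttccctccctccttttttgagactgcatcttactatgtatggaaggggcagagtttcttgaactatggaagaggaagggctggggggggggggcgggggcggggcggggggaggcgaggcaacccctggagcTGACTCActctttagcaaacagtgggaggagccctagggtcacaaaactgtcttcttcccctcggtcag
Csf1: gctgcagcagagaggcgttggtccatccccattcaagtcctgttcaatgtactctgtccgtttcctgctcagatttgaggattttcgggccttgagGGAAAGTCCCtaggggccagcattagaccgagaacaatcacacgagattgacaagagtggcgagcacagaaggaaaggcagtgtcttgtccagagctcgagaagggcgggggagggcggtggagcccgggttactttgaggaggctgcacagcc

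Within windows of 250 bases before to 50 after the start, the κB letters were in 0.411%, the AP-1 letters in 7.81% and the CRE letters in 1.79% of 32851 promoters. Ccl3, Ccl12, Tnf, Il1b, Id2, Tlr2 and Lgals3 held none of the 3. Cxcl10 and Plaur held AP-1 letters 74 and 69 bases before the start, Il1a held them 12 bases before it, and Csf1 held κB letters on the opposite strand from 154 bases before it. Of the 34 NF-κB genes 27 had an entry, and 2 of these held κB letters, 9 AP-1 letters and 2 CRE letters. Ccl4, Ccl2, Ccl7, Cstb, Cd83, Osm, Rgs1, Cd14 and Lpl were not compared here. The search took only the exact letters given above. Related spellings, such as gggaaattcc in the Cxcl10 sequence shown, were not counted. A promoter without a match may therefore still hold a site of that type. Genes outside Ccl3, Ccl4 and the NF-κB list were searched after their values were seen, and a match describes the letters only.

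The 24 cells differed among themselves. Ccl2 of 5 or more UMIs was found in 11 of them, Cxcl10 of 5 or more in 6 and Id2 of 5 or more in 7, with 3 cells sharing Ccl2 and Cxcl10, 1 sharing Ccl2 and Id2 and none sharing Cxcl10 and Id2. Only 4 cells had none of the 3 at that level. The cell of rank 2 held 36 Ccl2 and 8 Ccl7 UMIs with 2 of Ccl12 and 0 of Cxcl10. The cell of rank 3 held 122 Ccl12, 40 Cxcl10, 6 Ifit3 and 5 Ccl2 UMIs with 0 of Id2. The cell of rank 13 held 58 Ccl12, 20 Cxcl10 and 20 Tnf UMIs. All 3 cells with 5 or more Tnf UMIs also had 5 or more of Cxcl10, and all 3 with 5 or more Ccl7 UMIs had 5 or more of Ccl2. These groupings were seen in the cells described and rest on few cells.

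The 24 cells were also divided by Id2, an inhibitor of basic helix-loop-helix transcription factors. Id2 was at 342 CPM (269 to 428) in the 24 cells and 51.3 CPM (31.4 to 79.3) in the 76. It was at 53.7 CPM (49.6 to 58.0) in the cells with 0 UMIs. Of the 1933 cells with 0 UMIs 1 had 5 or more Id2 UMIs. The 7 cells with 5 or more Id2 UMIs held 63595 UMIs in all and the other 17 held 155938. The 7 held 59 of the UMIs of Cstb, a cystatin that inhibits lysosomal cathepsins, against 24 in the 17. They held 91 UMIs of Lgals3, a lectin of activated phagocytes, against 10, but 11 UMIs of Ccl2 against 227 and 1 of Cxcl10 against 84. Most of the Lgals3 and Cstb UMIs of the 7 were in 2 cells. The cell of rank 10 had 60, with 21 Cstb UMIs, and the cell of rank 12 had 24, with 21 Cstb, 15 Lpl, 12 Il1rn, 11 Plaur and 11 Lilrb4a UMIs. Lpl, lipoprotein lipase, was at 246 CPM (185 to 321) in the 24 cells against 34.4 CPM (31.2 to 37.9). Its UMIs did not follow Id2, with 27 in the 7 cells and 27 in the 17. The cell of rank 20 had 0 Id2 UMIs with 8 Lpl, 4 Lgals3, 5 Plaur and 7 Lilrb4a UMIs. The cell of rank 1 held 39 of the 43 Spp1 UMIs of the 24 cells, and without it the log2 ratio of Spp1 (osteopontin) was -0.55 in place of 2.77. Lgals3, Lpl, Spp1, Lilrb4a, Ifit1 and Ifit3 were named after their values were seen.

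**Figure D4:**
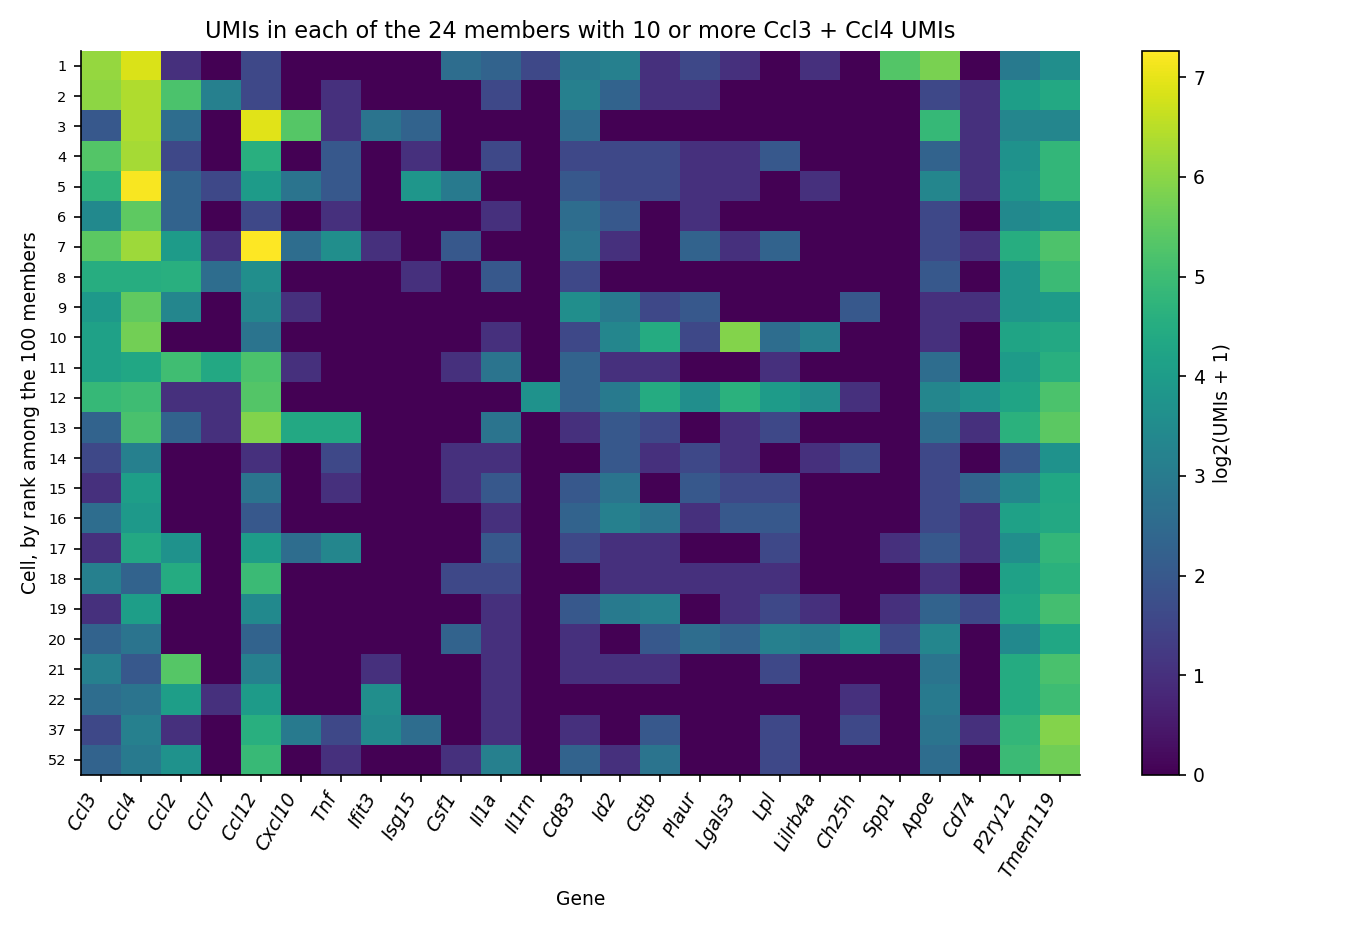
UMIs of 25 genes, as log2(UMIs + 1), in each of the 24 cells with 10 or more Ccl3 plus Ccl4 UMIs, with cells in rows by their rank among the 100. P2ry12 and Tmem119 are present in every row, while Ccl2, Cxcl10, Id2, Cstb and Lgals3 are bright in different rows.

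Of the 4 genes higher in the 100 cells, Cd74 and Cstb did not reach 2-fold without their highest cell, Cstb going from a log2 ratio of 1.01 to 0.78. Cd74, the invariant chain of MHC class II, had 175 UMIs in the 100 cells, and 121 of them were in the cell of rank 40, which had 5 Ccl3 UMIs and 1 Ccl4 UMI among 8925. That cell also held 23 H2-Aa, 19 H2-Ab1, 86 Lyz2 and 135 Apoe UMIs, with 18 Tmem119 and 11 P2ry12 UMIs. No H2-Aa UMI was found in the other 99 cells, and 37 were found in the 1933 cells with 0 UMIs. Without the cell the log2 ratio of Cd74 was 0.61 and it no longer passed 2-fold. Over 6 MHC genes past the floor the median log2 ratio was 0.06 in the 100 cells.

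All 33 homeostatic genes passed the floor, with a median log2 ratio of -0.06 in the 100 cells, -0.21 in the 24 and 0.01 in the 76, and none passed 2-fold in any of these. Over all genes tested, 0.126% were 2-fold higher and 0% lower in the 100 cells, 0.693% and 1.76% in the 24, and 0.0315% and 0.189% in the 76. Counts of 0 in this paragraph lie near those shares and show nothing particular to these lists. P2ry12 was at 1708 CPM (1540 to 1890) in the 24 cells, 2608 CPM (2450 to 2773) in the 76 and 2340 CPM (2312 to 2368) in the cells with 0 UMIs. Tmem119 was at 2911 CPM (2689 to 3145) in the 24 against 3468 CPM (3435 to 3502). Activation genes, for which 21 of 22 symbols were matched and 10 passed the floor, had a median log2 ratio of 0.21 in the 100 and 0.33 in the 24 cells with none past 2-fold, and Fabp5, Gpnmb and Igf1 had 0 UMIs in the 100 cells. Interferon-stimulated genes had a median of 0.15 in the 100 and 0.10 in the 24 cells over 6 past the floor. Ifit1 and Ifit3, which lay under it, had 19 and 29 UMIs in the 24 cells, from 4 and 5 cells. Glycolysis and hypoxia genes had medians of 0.11 and 0.39, heat shock genes of 0.06 and 0.22, MAP kinase feedback genes of 0.15 and 0.17, and mRNA decay genes of 0.04 and 0.02, with none past 2-fold.

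Summed over the 36 proliferation genes, the level was 4462 CPM (4296 to 4633) in the 100 cells and 5004 CPM (4964 to 5044) in the cells with 0 UMIs. It was 4910 CPM (4622 to 5213) in the 24 cells, an interval that held the value of the cells with 0 UMIs, and 4210 CPM (4008 to 4419) in the 76. After each cell was thinned to 2000 UMIs, Mki67, a marker of cycling cells, was detected in 10.0% (4.90 to 17.6) of the 100 cells and in 12.6% (11.1 to 14.1) of the cells with 0 UMIs, and Top2a, a topoisomerase of dividing cells, in 34.0% (24.8 to 44.2) and 25.3% (23.4 to 27.4). In the 24 cells, thinned alike, Mki67 was detected in 16.7% (4.74 to 37.4) and Top2a in 37.5% (18.8 to 59.4). In the 76 these were 7.89% (2.95 to 16.4) and 32.9% (22.5 to 44.6). UMIs of the 36 genes averaged 8.36 per thinned cell in the 100 cells and 9.23 in the cells with 0 UMIs. They averaged 10.6 in the 24 and 7.64 in the 76. Over the 21 that passed the floor the median log2 ratio was -0.13 in the 100 cells and 0.25 in the 1536 other cells with UMIs of either gene, which were deeper (median 6674 UMIs). The histone transcript Hist1h2ap was at 110 CPM (85.3 to 140) in the 100 cells against 195 CPM (187 to 203). It was among the 15 lowest ratios, which ran from -0.72 to -0.96 and also held Mtpn, Adam17, Tubg1, Cbx3, E2f1, Gmpr, Fdps and Tk1, on 16 to 67 UMIs.

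Below the 24 cells, Ccl2, Id2, Tnf and Cxcl10 were at levels far under those of the 24. Among cells with UMIs of either gene, Ccl2 was at 81.0 CPM in the 818 with a share under the median of such cells and outside the 100, at 64.0 CPM in the 718 with a share at or above it, and at 41.1 CPM in the 76. Id2 was at 58.7, 54.7 and 51.3 CPM in the same order, Tnf at 33, 36.3 and 35.9 CPM, and Cxcl10 at 10.9, 10.9 and 15.4 CPM. Ccl5, a T cell attractant, went another way, at 22, 55.1 and 35.9 CPM, and 134 of the 243 UMIs behind the middle value were in 1 cell, without which it was 24.8 CPM. Gene by gene across the 3569 cells, the Spearman correlation with the share of Ccl3 and Ccl4 was highest for Abhd12 (0.08), Cltb (0.07), Litaf (0.07), Bola1 (0.06) and Asna1 (0.06), values too small in counts this sparse to be read as a relation.

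Levels of both chemokines over all cells were lowest in library 2. Ccl3 was at 55.8 CPM (52.8 to 58.9) there, 106 CPM (87.2 to 127) in library 1 and 855 CPM (842 to 868) in library 3, and Ccl4 at 94.4 CPM (90.5 to 98.3), 165 CPM (141 to 191) and 786 CPM (773 to 798). Cells with a UMI of either gene were 45.8% (44.2 to 47.5) in library 2, 12% (9.02 to 15.6) in library 1, where cells were shallower, and 99% (98.6 to 99.3) in library 3. Of these cells in library 2, 1134 held 1 UMI, and the share of background RNA in droplets was not estimated. Cells with 10 or more UMIs of both genes were 25 of 3569 in library 2 (0.700%, 0.454 to 1.03), 6 of 408 in library 1 (1.47%, 0.542 to 3.17) and 916 of 3284 in library 3 (27.9%, 26.4 to 29.5). The median cell held 0 UMIs of both genes in libraries 1 and 2 and 6 in library 3. Median depth of the cells used was 2487 UMIs in library 1, 5961 in library 2 and 5767.5 in library 3, and the part of depth in these values was not tested. Time point, sort and library cannot be told apart in them.

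The same share of cells was then taken from the top of the other libraries. In library 1 that gave 11 cells with 3 to 75 UMIs of both genes, against 359 cells with 0. There 221 of 3298 genes were at least 2-fold higher (6.7%) and 740 lower (22.4%), on sums of 34564 UMIs in the 11 cells, so that most ratios rested on a few UMIs. Genes higher in the 24 cells of library 2 and also above counting error there included Ccl12 (log2 ratio 3.72, 3.25 to 4.18), Id2 (3.22, 1.96 to 4.41), Plaur (4.11, 2.26 to 5.86), Lpl (3.31, 2.22 to 4.34), Lgals3 (5.44, 3.06 to 7.71), Cd83 (2.29, 1.49 to 3.05), Rgs1 (1.83, 0.14 to 3.28), Csf1 (3.30, 0.64 to 5.58) and Ccl2 (4.5, 1.81 to 6.94). Of the 110 Ccl12 UMIs 108 were in 1 cell. Ccl2 had 5 UMIs in the 11 cells and 5 in the 359. Cxcl10 had 4 UMIs in the 11 cells, all in 1 cell, and none in the 359. Ccl7 and Il1b had none in the 11, and Tnf and Cstb had log2 ratios with intervals that held 0. P2ry12 was lower in the 11 cells (-1.19, -1.62 to -0.79).

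In library 3 the 92 top cells held 24 to 190 UMIs of both genes, against 33 cells with 0 that were shallower (median 4107 UMIs against 6232). There 98 of 3147 genes were 2-fold higher (3.11%) and 39 lower (1.24%). Ccl2 (1.94, 1.37 to 2.55), Tnf (1.58, 0.65 to 2.62), Cd83 (1.27, 0.34 to 2.29), Id2 (1.08, 0.34 to 1.88), Nfkbia (1.05, 0.52 to 1.61), Rgs1 (0.91, 0.30 to 1.55) and Ccl12 (0.56, 0.37 to 0.76) were among those higher beyond counting error. Cxcl10 had 4 UMIs in the 92 cells and 1 in the 33, Lpl had a log2 ratio of 0.08 (-1.62 to 2.01) and Cstb of 0.35 (-0.82 to 1.64). Ccl2, Cd83 and Id2 were higher beyond counting error in the top cells of all 3 libraries, also in libraries 1 and 3 without the highest top cell for each gene. Against the 11 cells of lowest share in library 1, the interval of Ccl2 held 0 (2.65, -1.38 to 7.76). Without the highest top cell for each gene, the library 1 ratio of Ccl12 turned to -1.87 (-4.95 to 0.16). Those of Rgs1 (1.12, -1.11 to 2.88), Csf1 (2.41, -1.30 to 5.18) and Lpl (1.77, -0.045 to 3.30) had intervals that held 0, while Plaur (3.06, 0.48 to 5.24) and Lgals3 (4.96, 2.18 to 7.47) stayed above it. The library 3 intervals of Plaur, Lgals3, Csf1 and Lpl held 0, and Tnf was higher beyond counting error in libraries 2 and 3. Differences between the libraries in these ratios were not tested, since each holds a single pool of animals.

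**Figure D5:**
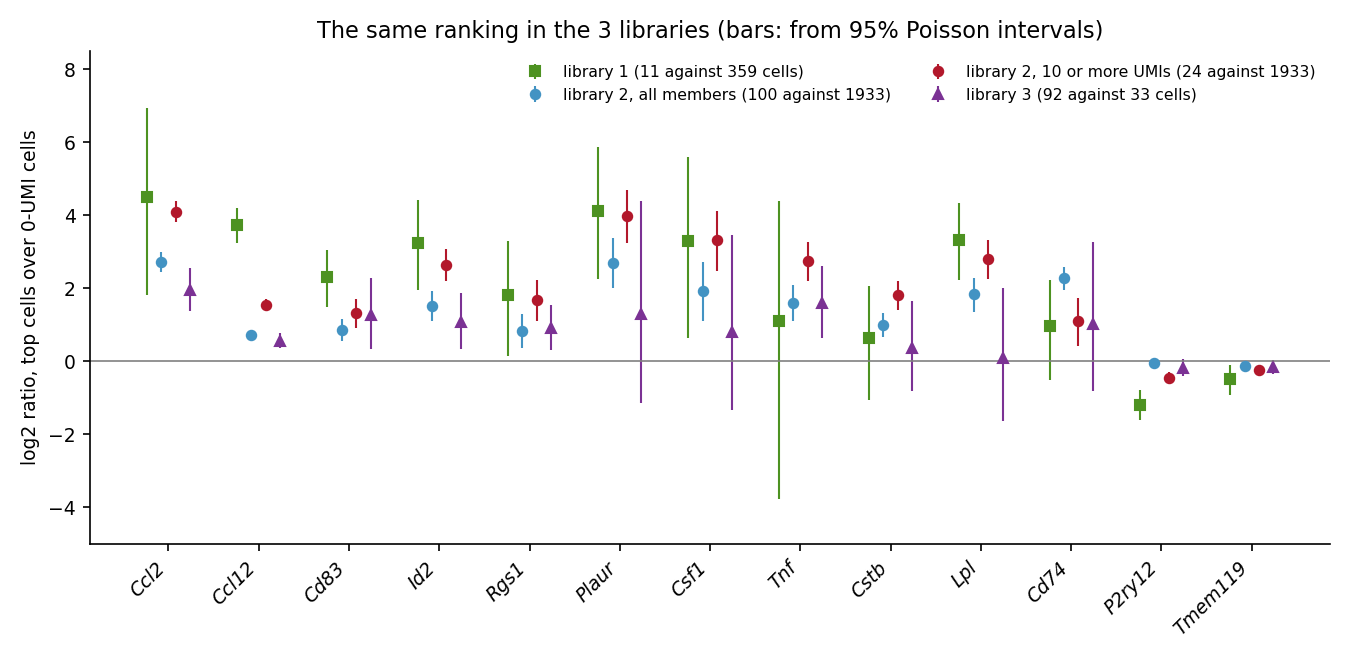
Log2 ratios of summed CPM (plus 1) in the top cells over the cells with 0 UMIs of both genes, for 13 genes in libraries 1, 2 and 3, with bars built from the 95% Poisson intervals of both sums. Ccl2, Ccl12, Cd83, Id2 and Rgs1 lie above 0 in all 3 libraries, Ccl12 in library 1 through 1 cell with 108 of its 110 UMIs, Cd74 is higher in all 100 cells of library 2 than in the 24 (121 of its 175 UMIs are in 1 cell), and P2ry12 lies lowest in library 1.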

How the data were processed

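YFP (+) lumbar cord cells of 3 samples, each a pool of 3 animals, were sequenced with 10x Genomics 3′ chemistry (version 3 in the methods, version 3.1 in the labels). The authors deposited 1 matrix of UMI counts for 27998 genes and 7522 cells, not normalized, made with Cell Ranger 2.1.1 on build mm10 per the submitters' processing notes. Any down-sampling of reads at the joining of libraries is not given in the sources used here. Total UMIs are in the report, and intervals cover counting error only.

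Cells with at least 2000 UMIs were used, which left out 22 cells of library 2. UMIs were summed over cells and scaled to CPM, genes needed 50 CPM over library 2, ratios used a pseudocount of 1 CPM, and a 2-fold ratio was counted as higher or lower. Thinning drew 2000 UMIs per cell with a fixed seed. No doublet caller was run. The sort gated out cell doublets, but whether droplets held 2 cells was not tested. The share of UMIs from background RNA was not estimated, so a cell with few UMIs of a gene may not have transcribed it. With 1 library per group no test was made. Python 3.11.15, numpy 2.4.6, scipy 1.17.1 and pandas 2.3.3 were used, and the steps were tested on simulated data.

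The cells and the 26 gene lists (365 of 366 symbols matched) were chosen with earlier results of these data known. Genes were named by rule: those of the chemokine, receptor, cytokine and NF-κB lists, the 15 highest and 15 lowest ratios, the 4 most abundant of each other list, and the 5 closest in Spearman correlation to the Ccl3 plus Ccl4 share. Other genes, and the cells named by rank, were chosen after their values were seen. Some listed genes are not reported here.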

Additional observations from a re-analysis of the deposited data

How the results depend on the processing

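With 1 library per group, no value here has a replicate check, and genes under 50 CPM rest on few UMIs. Against 4 genes higher and 0 lower in the 100 cells, a floor of 20 CPM gave 10 and 27 of 6058, no floor 556 and 858 of 14791, and 50 cells 9 and 13, while 200 cells gave 2 higher and ranking on thinned counts 2 higher. Thinned sums gave 42 lower, and the mean of the cells' own CPM gave 1 lower. In alternatives chosen after seeing the data, the 24 cells gave 22 and 56, the 76 cells 1 and 6, and leaving out each gene's highest cell 2 (Ccl2 and Id2) and 6. The chemokine median of 0.55 became 0.91 in the 24 and 0.089 in the 76 cells. In the 76 cells the log2 ratios of Ccl2 (-0.59), Id2 (-0.063), Ccl7 (-0.22), Csf1 (-1.68), Tnf (-0.023), Il1a (-0.39), Ccl12 (-0.14) and Rgs1 (-0.0046) were under 0. For each of these genes the CPM interval of the 76 held the level of the cells with 0 UMIs, so none was lower beyond counting error. Csf1 had 1 UMI in the 76 and Ccl7 had 3. Over 13 other settings of depth, scaling, filters and cell number the log2 ratio ranged from 2.01 to 3.46 for Ccl2, 0.34 to 3.03 for Cd74, 0.97 to 2.14 for Id2 and 0.65 to 1.35 for Cstb. The Ccl4 ratio in cells ranked by Ccl3 (25.1) was 49.9 with 50 cells, 14.1 with 200 and 16.4 after thinning, and the Ccl3 ratio in cells ranked by Ccl4 (17.8) was 31.1, 9.73 and 12.1. Against the cells of lowest share, 585 genes were higher and 678 lower in library 1, and 13 were higher and 8 lower in library 3. Without thinning, Mki67 was detected in 33% of the 100 cells and 31.8% of the cells with 0 UMIs, and Top2a in 51% of both. Leaving out the highest top cell of library 1, also chosen after seeing the data, turned the log2 ratio of Ccl12 from 3.72 to -1.87. The causes of these shifts were not tested. Keeping cells with at most 2 UMIs of the proliferation list was not run, as 1 cell of library 2 was left and 0 cells without UMIs of both genes. No paired analysis was possible because each group holds 1 library and no test was made.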

Other observations

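In library 2, Lgals3 reached 10 or more UMIs in 2 cells (0.0560%), both among the 100, and in 0 cells of libraries 1 and 3. A count of 0 allows a share of up to 0.735% in library 1 and 0.0914% in library 3 (3 counts of the total). The share in library 2 lay under both limits, so these counts show no difference between the libraries. Cxcl10 reached it in 3 cells of library 2 (0.0841%), 2 of them among the 100. It did so in 0 cells of library 1 and 0 of the 3284 cells of library 3, with the same limits. Spp1 reached it in 5 cells of library 2, 1 of them among the 100, and its highest count in that library was 111 UMIs. It also reached it in 1 cell of library 1 and 1 cell of library 3. Ccl2 reached it in 16 cells of library 2 (0.448%, exact binomial interval 0.256 to 0.727) and in 225 of library 3 (6.85%, 6.01 to 7.77), of which 142 also had 10 or more UMIs of Ccl3 and Ccl4. These genes and this level were chosen after the data were seen.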
